A study of Mus musculus with 24 samples.

Results

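The 39 Hox genes of the mouse were followed through 24 RNA-seq libraries of liver cells and liver tissue. They were taken from the 48820 entries of each of 4 count tables as the symbols that consist of Hox, a cluster letter from a to d and a number, so that the noncoding RNAs of the clusters were left out. All mice were C57BL/6, and each of the 8 groups held 3 libraries. Hepatic stellate cell knockout (HSC-KO) mice carried Gdf2 fl/fl and Bmp10 fl/fl alleles that Lrat Cre deletes in hepatic stellate cells. Endothelial cells (ECs, sorted as CD45-CD31+) and liver macrophages (CD45+Ly6C-F4/80+CD64+) came from HSC-KO and control mice aged 8 to 10 weeks. Whole livers came from such mice aged 12 weeks. Macrophages of every group are called KCs here, for Kupffer cells. The study proposes, however, that in HSC-KO mice monocyte-derived macrophages took the place of embryonic Kupffer cells. A second pair of macrophage groups came from Smad4 cKO mice, in which Vav1 Cre deletes Smad4 fl/fl in hematopoietic cells, and from their Smad4 fl/fl controls, at 8 to 10 weeks. The question put to the data was which Hox genes hepatic ECs use, whether that set changes when stellate cells no longer make GDF2 (BMP9) and BMP10, and how far Hox counts in macrophage libraries exceed what ECs could carry over.

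Hox genes encode homeodomain transcription factors that give cells along the body axis their positional identity. They lie in clusters in which the gene order matches the order of expression along the head-to-tail axis, with low paralog groups at the 3′ end used anteriorly and high paralog groups at the 5′ end used posteriorly. Adult endothelial cells and fibroblasts keep a Hox pattern that reflects the organ they come from, and blood cells use Hox genes, Hoxb4 among them, in stem and progenitor cells. In GENCODE vM21 for GRCm38, the Hoxa cluster (11 genes) lay at chr6:52155590-52260880, the Hoxb cluster (10 genes) at chr11:96194316-96368256, the Hoxc cluster (9 genes) at chr15:102921103-103036852 and the Hoxd cluster (9 genes) at chr2:74668310-74765142.

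The libraries held 60911527 to 110879155 counts in genes, and no pair of libraries of a group had identical values. Counts per 1000000 (CPM) were scaled with TMM factors within each table, and 3 counts in a library corresponded to 0.0258 to 0.0524 CPM. A gene with no more than 3 counts in each library of a group counts here as not detectable; such limits cover counting error only. Gdf2, one of the deleted genes, had 16.8 ± 6.71 CPM in control livers and 2.86 ± 0.887 in HSC-KO livers (SD, n = 3), and Smad4 had 39.4 ± 3.82 and 15.1 ± 2.32 CPM in control and Smad4 cKO macrophages. HSC-KO EC replicate 1 stood apart: Gata4, a transcription factor of sinusoidal ECs, had 334, 346 and 341 CPM in control ECs and 25.3, 4.21 and 4.16 CPM in HSC-KO ECs, and Stab2, a sinusoidal scavenger receptor, had 952 CPM in that library against 117 and 100.3 in the other HSC-KO EC libraries. The labels show 3 mice with libraries of both ECs and macrophages. Xist is the noncoding RNA that silences an X chromosome in females. Its levels showed that the libraries were not all of the same sex within the EC, KC and liver comparisons of HSC-KO mice. The same held for control ECs against control KCs and against control livers. How the sexes fell between the groups compared is not given here.

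Of the 39 Hox genes, 10 had no count in any library. These were Hoxa11, Hoxa13, Hoxc4, Hoxc10, Hoxc11, Hoxc12, Hoxd1, Hoxd10, Hoxd12 and Hoxd13, which are posterior genes apart from Hoxc4 and Hoxd1. Another 14 genes never reached more than 16 counts in a library, which left 15 genes above that level. Counts of 4 were more frequent than counts of 3 or of 5 in every table, so a count this low may rest on fewer independent fragments.

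**Figure D1:**
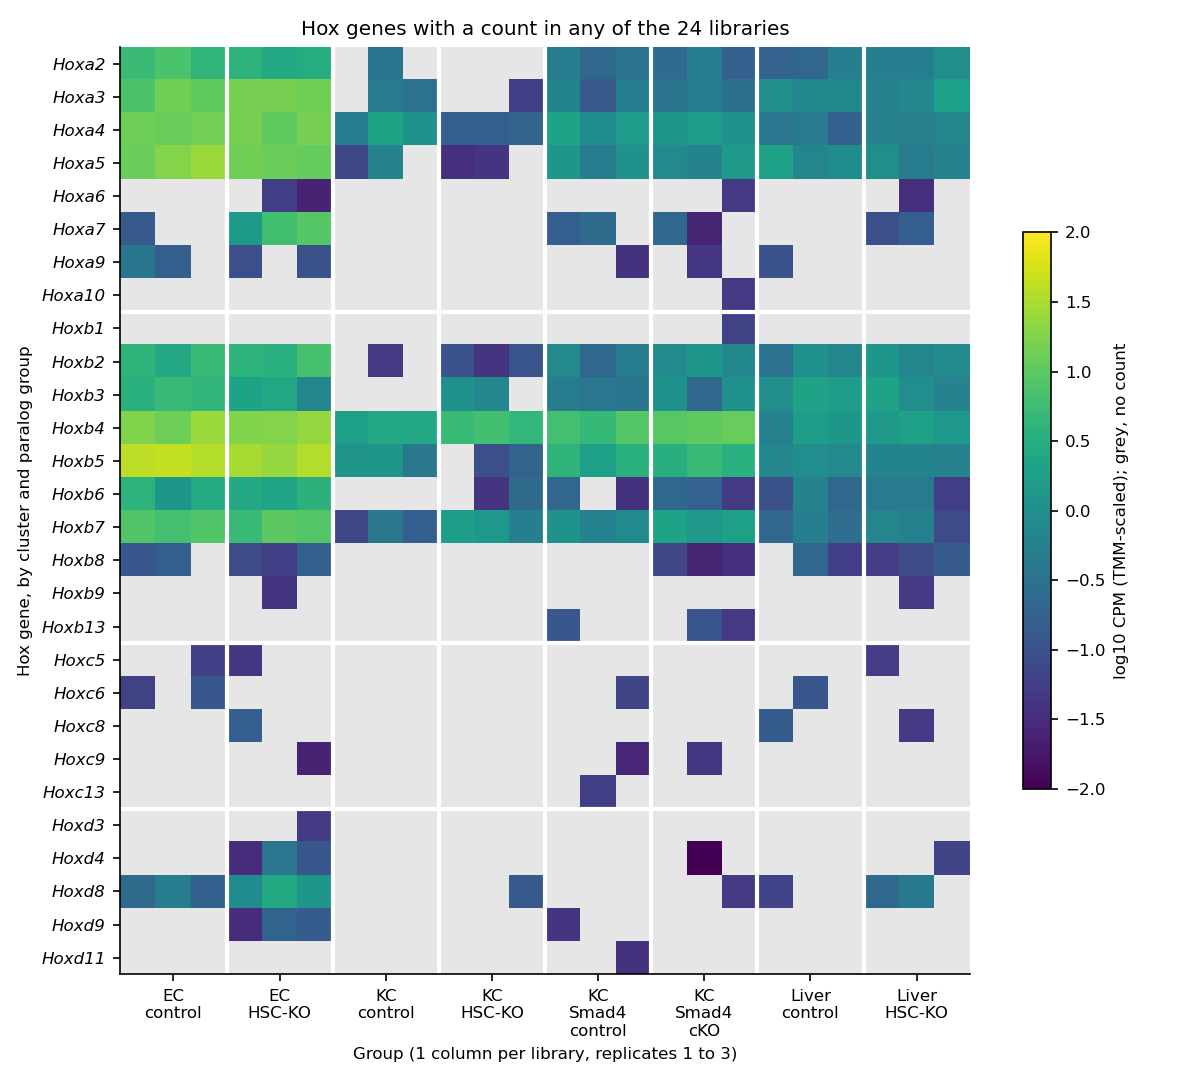
Levels of Hox genes with a count in any library, as log10 TMM-scaled CPM (colour; grey, no count), with genes from top to bottom and libraries from left to right in 8 groups of 3. Signal is concentrated in paralog groups 1 to 7 of the Hoxa and Hoxb clusters, and the EC libraries are the brightest.

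Control hepatic ECs used the anterior and central genes of the Hoxa and Hoxb clusters and almost nothing of the Hoxc and Hoxd clusters. All Hox genes together had 123, 129 and 144 CPM in the 3 control EC libraries. The Hoxb cluster gave 58.0% of this sum on average and the Hoxa cluster 41.7%. The Hoxc and Hoxd clusters gave 0.0573% and 0.236%. Paralog groups 1 to 3 had 31.4 CPM, groups 4 to 8 had 101 CPM and groups 9 to 13 had 0.172 CPM (means of 3 libraries). Over 3 counts in all 3 control EC libraries were found for 12 genes, in some of them for 5 and in none for 22.

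Levels of different genes were compared per kb of exon. Hoxb5 led with 14.3, 15.3 and 12.97 CPM per kb in the control EC libraries. Hoxa5 followed with 6.84, 9.65 and 13.2 CPM per kb, then Hoxa4 with 8.09, 7.80 and 9.10 and Hoxb4 with 6.85, 5.03 and 9.68. The ranges of neighbours in this order overlapped, whereas every library of Hoxb5 was above every library of Hoxa4 and of Hoxb4. Hoxb7 had a mean of 4.85 CPM per kb and Hoxa2 of 3.17. A step without overlap separated Hoxa2 from Hoxa3, which had a mean of 1.79 CPM per kb. Hoxb6, Hoxb2 and Hoxb3 followed at 1.36, 1.10 and 1.02 CPM per kb and overlapped in turn. A further step without overlap separated Hoxb3 from Hoxd8, the only Hoxd gene over 3 counts in every control EC library, at 0.112 CPM per kb.

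Along the chromosome, levels were much lower to the 5′ side of the expressed stretch. In the Hoxb cluster, Hoxb7 had 8.10, 6.29 and 8.09 CPM in control ECs. Its 5′ neighbour Hoxb8 had 10, 10 and 0 counts. Hoxb1, at the 3′ end, had no count in ECs. In the Hoxa cluster, Hoxa5 was followed by Hoxa6 with no count in any control EC library and Hoxa7 with 11, 0 and 0. Hoxa9, the next gene, had 29, 10 and 0 counts, and Hoxa10 had none. The annotated start of Hoxa3 lies 5′ of those of Hoxa4 to Hoxa6.

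**Figure D2:**
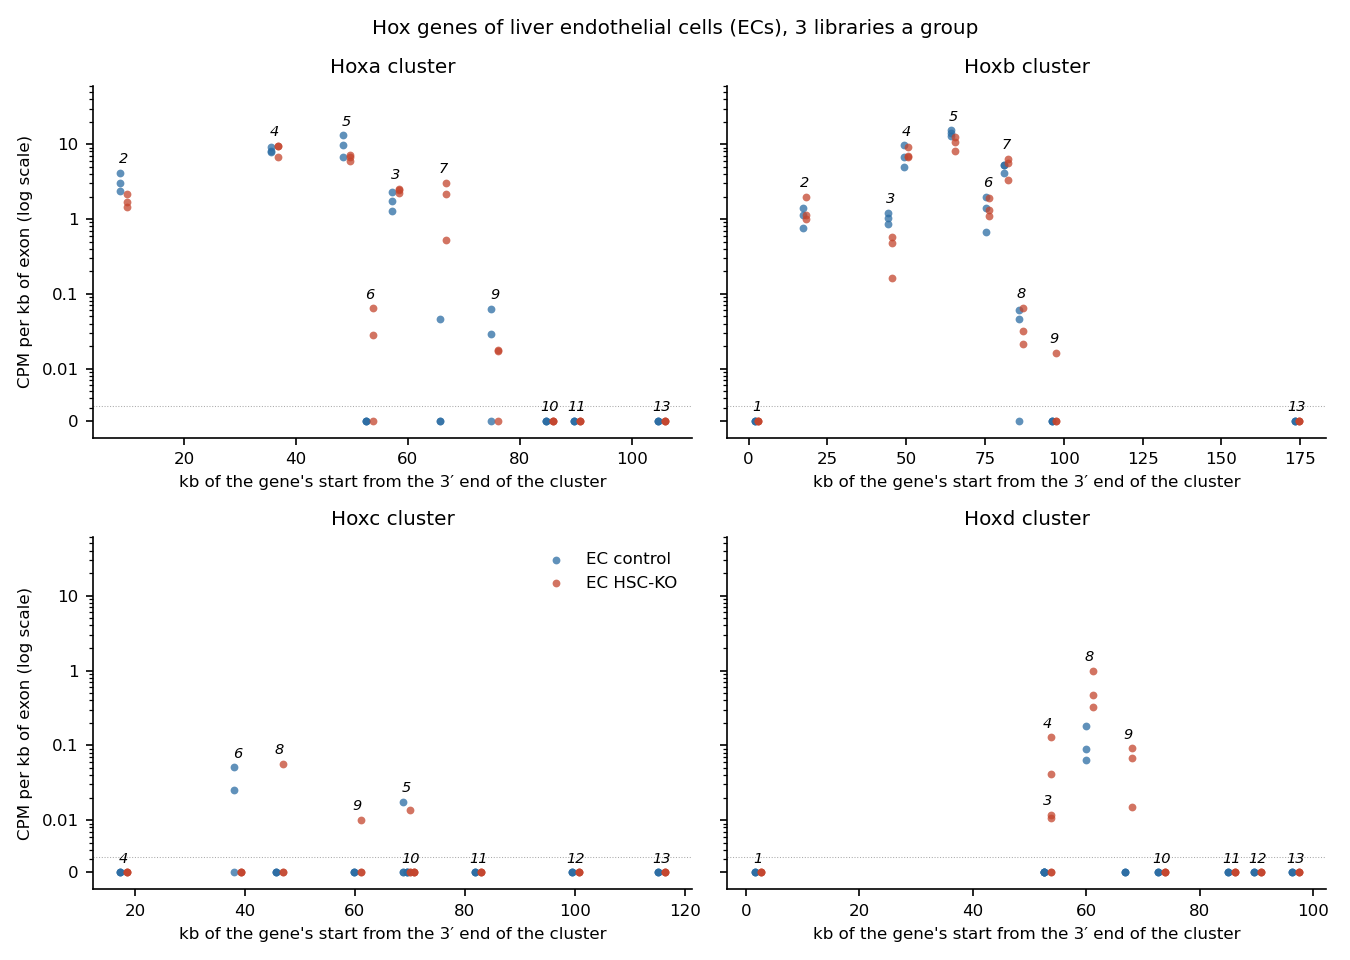
Level of Hox genes in ECs (CPM per kb of exon, log scale; libraries with no count at the tick marked 0) against the distance in kb of its annotated start from the 3′ end of its cluster, with 1 point per library (blue, control; red, HSC-KO) and paralog numbers above the points. Hoxa7 lies at 0 to 0.0467 in control and 0.531 to 3.03 in HSC-KO ECs, and Hoxd8 rises with Hoxd4 and Hoxd9 beside it at low levels.

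In ECs of HSC-KO mice Hoxa7 and Hoxd8, both low in control ECs, rose, and the Hoxd8 call did not hold in most fits with a library left out. With edgeR's quasi-likelihood test, a gene was called if its adjusted p was below 0.05 and its log2 fold change exceeded 1 in size. By this rule 3 of the 13 Hox genes tested were called, Hoxa7 and Hoxd8 among them, and 13.7% of all 16053 genes tested (7.68% called and higher, 6.01% called and lower). The other 26 Hox genes were below the filter on low counts, which a gene passes if it is high enough in 1 group, as Hoxa7 did. The groups did not overlap in 6 of the 13 genes (46.2%, against 40.4% of all genes). The sum over all Hox genes was 114, 110.97 and 135 CPM in HSC-KO ECs and overlapped that of controls, and the median log2 fold change of the 13 genes was 0.07, against 0.00475 over all genes.

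Hoxa7 had 11, 0 and 0 counts (0.134, 0 and 0 CPM) in control ECs and 144, 440 and 713 counts (1.53, 6.14 and 8.72 CPM) in HSC-KO ECs. Every HSC-KO library was above every control library. The log2 fold change was 6.77 (standard error 1.20, adjusted p = 0.00721 by edgeR's quasi-likelihood test). Because its control level rests on 1 library, the fold is poorly fixed. Without control replicate 1 no control count is left. The HSC-KO mean of 5.46 CPM was then at least 112.6-fold higher, set against 3 counts in 1 library (0.0485 CPM). This bound leaves out the only control library with Hoxa7 counts and rests on the mean, while HSC-KO replicate 1 had 1.53 CPM. Hoxa7 stayed called whichever EC library was left out. In GENCODE, 20.4% of its exon bases lie opposite exons of the noncoding RNA Hoxaas3, and the sources used here do not give whether counting used the strand. Hoxaas3 had 3.09, 3.04 and 3.64 CPM in controls and 2.35, 3.36 and 3.56 CPM in HSC-KO ECs (log2 fold change -0.07, adjusted p = 0.882 in edgeR's test).

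Hoxd8 had 0.244, 0.501 and 0.176 CPM in control ECs. It had 0.891, 2.73 and 1.31 CPM in HSC-KO ECs, all above the controls (log2 fold change 2.42, standard error 0.62, adjusted p = 0.0305 by edgeR's quasi-likelihood test). The call was lost when control replicate 1 or 3 or HSC-KO replicate 2 or 3 was left out, with adjusted p up to 0.122 in edgeR's test and a log2 fold change of 1.84 to 2.95. Its Hoxd neighbours Hoxd4 and Hoxd9 had no count in control ECs. In HSC-KO ECs they had 3, 27 and 10 counts and 3, 14 and 12 counts, and both were below the filter. In GENCODE, 52.3% of the exon bases of Hoxd4 are shared with Hoxd3 or the overlapping gene model Gm28230, so its few reads cannot be placed with certainty.

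Of the other Hox genes of ECs, 4 had an unadjusted p below 0.05 and were not called. Hoxb3 had 3.60, 5.09 and 4.34 CPM in controls and 2.06, 2.41 and 0.697 CPM in HSC-KO ECs (log2 fold change -1.33, adjusted p = 0.0817 in edgeR's test; called by DESeq2 with adjusted p = 0.0215). Opposite its exons lie those of Hoxb3os over 52.9% of their bases. Hoxa2 had a log2 fold change of -0.84 (adjusted p = 0.0862 in edgeR's test) and Hoxb5, the leading Hox gene of control ECs, of -0.45 (adjusted p = 0.128). Hoxa2 went from 5.36, 7.31 and 4.21 to 3.86, 2.55 and 3.03 CPM, and Hoxb5 from 39.96, 42.7 and 36.1 to 29.5, 22.9 and 34.8 CPM. Neither overlapped between the groups with TMM scaling, but both did with library size alone. Library size alone shifts EC fold changes upward by 0.29 in log2 units, so the falls of Hoxa2, Hoxb5 and Hoxa5 are smaller with it. Hoxa5 went from 12.8, 18.1 and 24.7 to 13.5, 12.5 and 11.2 CPM, with overlap (log2 fold change -0.58, adjusted p = 0.143 in edgeR's test). The levels of Hoxa3, Hoxa4, Hoxb2, Hoxb4, Hoxb6 and Hoxb7 overlapped between the groups, with log2 fold changes of 0.03 to 0.44. Hoxb4 had 17.6, 12.9 and 24.8 CPM in control ECs and 17.4, 17.999 and 23.5 CPM in HSC-KO ECs, and Hoxa4 had 12.9, 12.4 and 14.5 CPM and 14.9, 10.7 and 15.1 CPM.

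HSC-KO replicate 1, which kept the most Gata4 and Stab2, had the least Hoxa7 and the least Hoxd8 of the 3 HSC-KO EC libraries. Without it the log2 fold changes were 7.21 for Hoxa7 and 2.72 for Hoxd8. A link of these Hox genes to Gata4 or Stab2 was not tested. The 12 pan-endothelial markers had a median log2 fold change of 0.22, and edgeR's quasi-likelihood test called 0 of them, with an unadjusted p below 0.05 for 7 (DESeq2 called 0).

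Markers of other cells and vessel types moved with genotype in the EC libraries. The 10 macrophage markers summed to 63.8 to 82.5 CPM in controls and 6.45 to 9.46 CPM in HSC-KO ECs, with Fcgr1, Clec4f and Vsig4 not detectable in the latter. The 6 mesothelial markers summed to 5.42 to 10.6 CPM and 14.01 to 18.5 CPM, and 1 of 4 tested (Gpm6a) rose. Of the 6 lymphatic EC markers, Pdpn, Ccl21a and Mmrn1 rose and Flt4 fell, and their sum went from 3441 to 6138 CPM down to 1439 to 1819 CPM. Of the 6 venous and portal EC markers, Rspo3, Ackr1 and Nr2f2 fell, and their sum was 1331 to 1438 CPM in controls and 532 to 743 CPM in HSC-KO ECs. The 7 arterial EC markers summed to 742 to 1034 CPM and 478 to 607 CPM, and 1 (Gja4) fell. The 10 stellate cell markers summed to 187 to 262 CPM and 125 to 160.2 CPM, and 2 (Lrat and Hgf) fell. The 7 hematopoietic progenitor markers summed to 259 to 322 CPM and 673 to 1101 CPM. Of these, Cd34, which vascular ECs also express, rose, Kit fell, and Mpo and Myb were not detectable in either group. The sums of each of these lists did not overlap between the groups. Of the 8 hepatocyte markers 2 fell, with sums that overlapped. The part of these cells in the Hox changes was not tested. In such bulk libraries, fewer cells of a kind and less RNA per cell cannot be told apart.

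**Figure D3:**
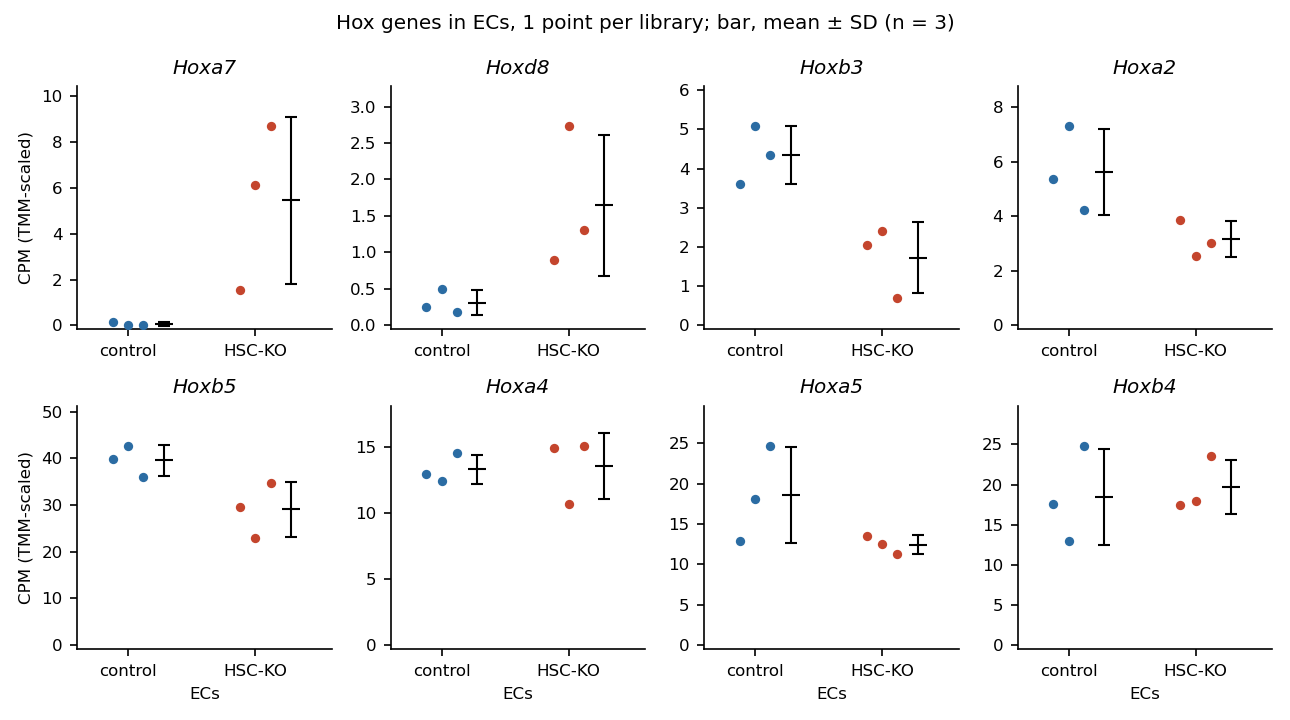
TMM-scaled CPM of 8 Hox genes in ECs, 1 point per library (blue, control; red, HSC-KO) with mean ± SD (n = 3) to the right of the points; the axes differ between genes. Hoxa7 and Hoxd8 were called. With this scaling Hoxb3, Hoxa2 and Hoxb5 separate the groups without being called, and Hoxa4, Hoxa5 and Hoxb4 overlap.

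Promoter windows of RefSeq for GRCm38.p6, from 250 bases before to 50 after a gene's start, were found for 22 of the 39 Hox genes, with 24 windows in all. Those of Hoxa7 and Hoxd8, which rose in HSC-KO ECs, and of Hoxb4, which rose in HSC-KO macrophages, are shown 5′ to 3′ on the gene's strand, at chr6:52218524-52218823 (minus strand), chr2:74704365-74704664 (plus strand) and chr11:96318017-96318316 (plus strand). The window of Hoxa7 begins inside the longer GENCODE model of the gene (52214491 to 52221854). Capitals mark matches, on either strand, to any of 5 short motifs: GGCGCC (a GC-rich core bound by BMP-activated SMADs), AGATAA (the letters bound by factors such as Gata4), AGGTCA (a nuclear receptor half-site), TGATTNAT (Hox with Pbx) and TATAAA (the TATA box).
Hoxa7: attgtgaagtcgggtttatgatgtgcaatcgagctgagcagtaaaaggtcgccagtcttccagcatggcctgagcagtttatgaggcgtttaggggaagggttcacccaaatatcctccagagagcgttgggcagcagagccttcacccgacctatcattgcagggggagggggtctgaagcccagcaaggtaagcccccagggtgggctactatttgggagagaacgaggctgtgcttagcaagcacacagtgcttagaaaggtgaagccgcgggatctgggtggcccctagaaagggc
Hoxd8: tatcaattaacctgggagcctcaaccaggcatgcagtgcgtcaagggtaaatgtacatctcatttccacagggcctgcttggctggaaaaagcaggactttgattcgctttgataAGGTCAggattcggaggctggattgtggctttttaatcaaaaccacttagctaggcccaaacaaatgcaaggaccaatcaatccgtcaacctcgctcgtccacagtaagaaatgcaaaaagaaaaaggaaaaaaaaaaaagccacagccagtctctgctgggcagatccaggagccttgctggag
Hoxb4: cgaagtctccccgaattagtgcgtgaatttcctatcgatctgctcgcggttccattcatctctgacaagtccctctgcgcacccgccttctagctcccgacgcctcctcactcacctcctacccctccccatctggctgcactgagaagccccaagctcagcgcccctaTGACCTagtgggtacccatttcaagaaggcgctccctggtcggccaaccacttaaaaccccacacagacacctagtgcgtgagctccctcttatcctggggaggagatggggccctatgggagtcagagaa

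Hoxd8 and Hoxb4 each held 1 AGGTCA, at 135 and 81 bases before the start, the latter on the opposite strand, and Hoxa7 held none of the 5 motifs. AGGTCA was present in 7 of the 24 Hox windows (29.2%) and in 16.3% of all 32851 windows. GGCGCC was present in 5 Hox windows (20.8%, against 11.9% of all) and AGATAA in 0 (11.2% of all). TGATTNAT was present in 2 (8.33%, against 3.22%) and TATAAA in 4 (16.7%, against 13.6%). A match describes the letters in the window and is not evidence of binding.

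Control ECs held more Hoxa4, Hoxb4 and Hoxb5 than control KCs, and these genes were counted in every control library of both cell types. A gene passes the filter on low counts if it is high enough in 1 cell type, and Hoxb3, Hoxb6 and Hoxd8 had no count in any control KC library. The number of genes called was therefore largely fixed by the filter and is given as a description. Of the 12 Hox genes tested, 12 were called and higher in ECs with edgeR's quasi-likelihood test (35.9% of all genes were called, and 17.9% were called and higher in ECs), and 12 of the 12 did not overlap (62.3% of all genes). With at least 10 counts required in every library, 4 Hox genes were left to test, and all 4 were called. This number, too, is a description, as the share of all genes called with that filter is not given here. Hoxb5 had 39.96, 42.7 and 36.1 CPM in control ECs and 1.17, 1.31 and 0.402 CPM in control KCs (log2 difference 5.16, standard error 0.43, adjusted p = 8.67e-05 in edgeR's test). Hoxa4 and Hoxb4 were higher in ECs by 3.21 and 2.81 on the log2 scale (adjusted p = 0.00158 and 0.000308 in edgeR's test). Hoxb3 and Hoxb6 had no count in control KCs. Set against 3 counts per library, their mean levels in control ECs were at least 82.9-fold and at least 50.9-fold higher. The lowest control EC library had 3.60 CPM of Hoxb3 and 1.33 CPM of Hoxb6, against means of 4.35 and 2.67 CPM.

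Whole livers carried a small Hox signal. The sum over all Hox genes was 6.70, 9.76 and 7.54 CPM in control livers. With edgeR's quasi-likelihood test, 11 of 13 Hox genes tested were higher in control ECs than in control livers, against 59.9% of all genes called and 26.6% called and higher in ECs, and 12 of the 13 did not overlap (92.3%, against 79% of all genes). This filter, too, can be passed through ECs alone. Hoxb5 had the largest gap among those called with a log2 difference of 5.14 (adjusted p = 5.66e-07 in edgeR's test). Hoxb3 was 0.96 higher on the log2 scale and short of the fold threshold, and Hoxb8 did not differ detectably (log2 difference -0.37, standard error 1.45). The median ratio over the 12 pan-endothelial markers put the EC share of control liver RNA at 2.54%, 2.91% and 3.29%. Set against this share, Hoxb2 and Hoxb3 were over 3 times the level ECs would bring in all 3 control livers. In HSC-KO livers the same held for Hoxa2, Hoxb2, Hoxb3 and Hoxb8, but Hoxb8 had only 4, 7 and 10 counts there and 8, 4 and 14 counts in HSC-KO ECs. The markers also spread widely in livers, where Sox18 alone gave 33.4% to 37.5% in controls and 51.4% to 80.6% in HSC-KO livers. This comparison in livers was added after the data were seen.

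Macrophage libraries held a smaller Hox signal, led by Hoxb4, and part of it could come from ECs in the sort. By group means, the sum over all Hox genes was 4.92% of that of ECs in control KCs, 6.60% in HSC-KO KCs, 12.3% in Smad4 control KCs and 16.6% in Smad4 cKO KCs. The EC share of each macrophage library was taken as the median, over the 12 pan-endothelial markers, of the level in the library relative to that in ECs. This share was 0.0944%, 1.45% and 0.993% in control KCs and 0.0484%, 0.0451% and 0.264% in HSC-KO KCs. It was higher in the Smad4 experiment, with 8.03%, 2.29% and 8.43% in control and 8.53%, 7.78% and 6.33% in cKO macrophages. All 12 markers were detectable in the macrophage groups except Sox18, which was at 3 counts or fewer in HSC-KO KCs. Single markers spread widely around the median: in Smad4 control replicate 1 they ran from 5.77% for Tek to 26.9% for Egfl7. In control KCs the spread was wider relative to the median, from 0% for Sox18 to 2.17% for Erg in replicate 1 and from 0.783% for Sox18 to 7.83% for Erg in replicate 2. The multiples of the carry-over that follow rest on the median and shrink in proportion where a higher marker is taken.

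Hoxb4, which is known for the expansion of blood stem cells, was the only Hox gene that exceeded 3 times the level carried over from ECs in every library of all 4 macrophage groups when the EC share was the median over the markers. With the share taken from the summed markers (a median of 11.4% in Smad4 control macrophages), 0 Hox genes did so in Smad4 control macrophages. It had 1.80, 2.54 and 2.60 CPM in control KCs, which were 103, 9.54 and 14.2 times the carry-over. In HSC-KO KCs it had 5.09, 6.24 and 4.52 CPM, or 535, 703 and 87.3 times the carry-over. The levels were 6.28, 4.86 and 8.79 CPM in Smad4 control macrophages and 9.09, 10.7 and 11.6 CPM in Smad4 cKO macrophages. There the excess was smaller, with 4.24 to 11.5 times the carry-over in controls and 5.78 to 9.91 times in cKO macrophages, and no Smad4 library group kept it above 10 times throughout.

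Hoxa4 also exceeded 3 times the carry-over in every control and HSC-KO KC library. Hoxb2 and Hoxb7 did so in HSC-KO KCs alone, where the EC share was lowest, and for Hoxb2 this rests on 9, 4 and 10 counts. In all, 5 genes passed there and 3 in control KCs. In the Smad4 experiment Hoxb4 alone passed, with the limit given above for the controls. Hoxb5, the leading Hox gene of ECs, had 4.05, 1.80 and 3.53 CPM in Smad4 control macrophages, only 1.27, 1.99 and 1.06 times the carry-over. The Smad4 macrophage libraries thus held a Hoxb5 level near that which ECs would bring, and, by the median over the markers, a Hoxb4 level above it.

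**Figure D4:**
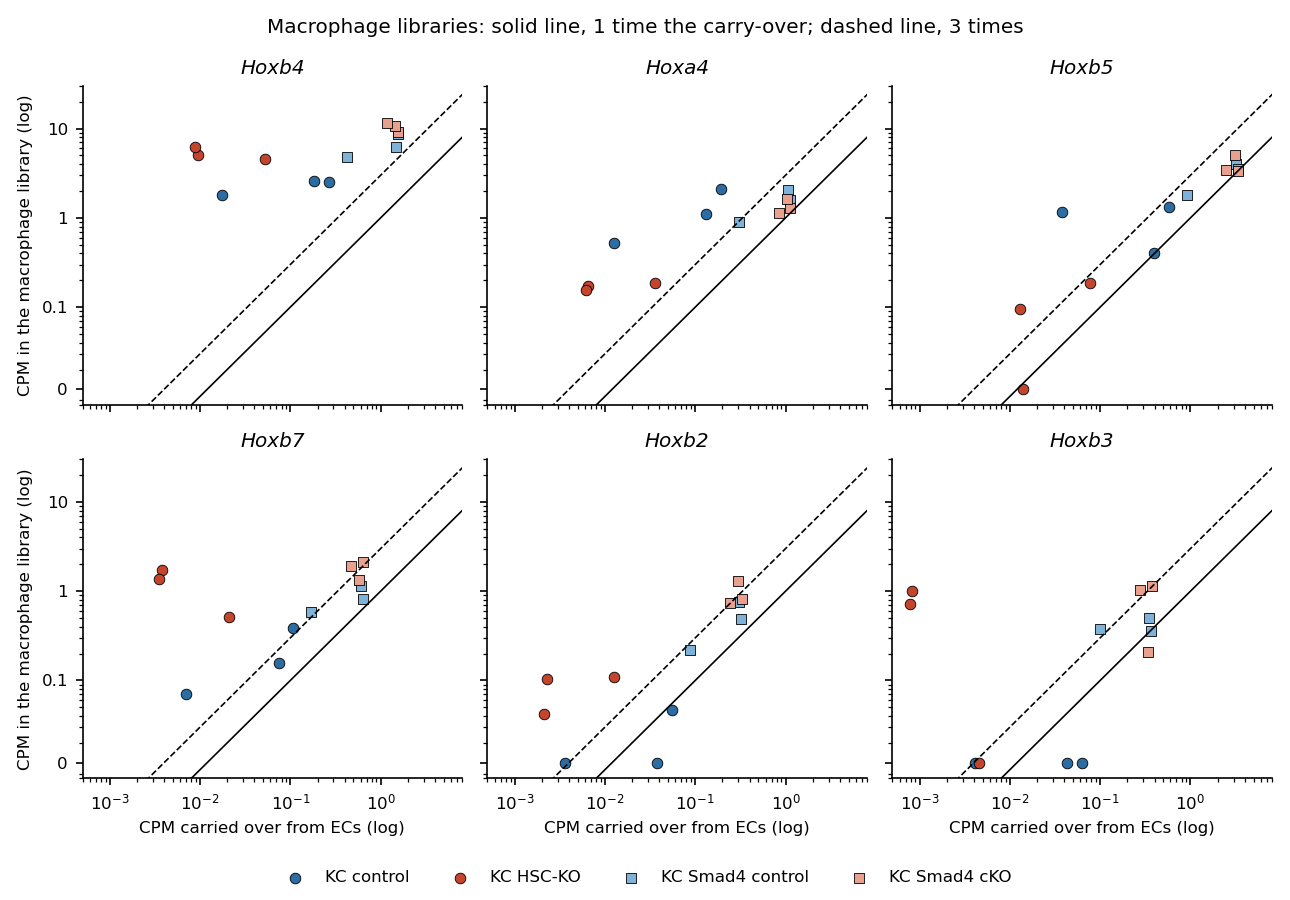
Level of 6 Hox genes in each macrophage library (CPM, log scale; libraries with no count at the tick marked 0) against the level that its EC share, as the median over the markers, would bring (CPM, log scale), with 1 point per library of 4 groups. The solid line marks 1 time and the dashed line 3 times the carry-over: Hoxb4 lies above the dashed line in all 12 libraries, and Hoxb5 lies near the solid line in the Smad4 experiment.

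Macrophages of HSC-KO mice held less Hoxa and more Hoxb signal than control KCs. The study proposes that the macrophage population itself changed in these mice, which cannot be told apart here from a change within cells. With edgeR's quasi-likelihood test, 3 of the 5 Hox genes tested were called, Hoxb4 and Hoxa4 among them, against 11.7% of all 16337 genes tested (6.32% called and higher, 5.34% called and lower). The other 34 Hox genes were below the filter on low counts. None of the 5 genes overlapped between the groups (100%, against 40.3% of all genes). This count is a description, since Hoxb5 passed the filter through control KCs and Hoxb7 through HSC-KO KCs, so that their separation was largely set by the filter. The Hoxa cluster summed to 3.01 ± 1.51 CPM in controls and 0.531 ± 0.0965 CPM in HSC-KO KCs (SD, n = 3). The Hoxb cluster summed to 3.50 ± 0.687 and 7.34 ± 1.55 CPM, and its mean share of the Hox sum was 55.5% and 92.4%.

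Hoxb4 rose. It had 152, 216 and 149 counts in control KCs and 447, 595 and 413 counts in HSC-KO KCs, so that every HSC-KO library was above every control library (log2 fold change 1.19, standard error 0.26, adjusted p = 0.0184 by edgeR's quasi-likelihood test). Hoxa4 fell by 2.85 in log2 units (standard error 0.64, adjusted p = 0.0188 in edgeR's test), from 0.520, 2.10 and 1.12 CPM to 0.171, 0.157 and 0.186 CPM. The Hoxa4 call was lost without control replicate 2 or any 1 HSC-KO library (adjusted p up to 0.0896), and the Hoxb4 call without control replicate 2 or HSC-KO replicate 1 or 2 (adjusted p up to 0.0628).

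Hoxb5 and Hoxb7 separated the groups in opposite directions and were not called. Hoxb5 had 1.17, 1.31 and 0.402 CPM in controls and 0, 0.0943 and 0.186 CPM in HSC-KO KCs (log2 fold change -3.34, adjusted p = 0.0828 in edgeR's test, 0.0112 in DESeq2). Hoxb7 had 0.0709, 0.388 and 0.157 CPM in controls and 1.73, 1.36 and 0.515 CPM in HSC-KO KCs (log2 fold change 2.53, adjusted p = 0.0595 in edgeR's test, 0.0124 in DESeq2). Among the genes below the filter, Hoxb3 had no count in control KCs and 89, 68 and 0 counts in HSC-KO KCs, Hoxb6 had no count in controls and 0, 4 and 22 counts in HSC-KO KCs, and Hoxa2 had 0, 31 and 0 counts in controls and none in HSC-KO KCs.

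Markers of other cells moved with genotype in these libraries. The 8 T, NK and B cell markers summed to 13.8 to 23.7 CPM in controls and 40.04 to 136 CPM in HSC-KO KCs, and 4 of 8 were called as higher. The 6 neutrophil markers summed to 28.1 to 56.9 and 0.744 to 9.98 CPM, with Ly6g not detectable in either group and 1 of 3 tested called as lower. The 12 pan-endothelial markers summed to 17.3 to 239.9 and 6.82 to 44.7 CPM, with 1 of 11 tested called as lower. Their median log2 fold change was -2.76, with an unadjusted p below 0.05 for 6 in edgeR's test (DESeq2 called 3). The 7 arterial EC markers summed to 8.06 to 19.3 CPM in controls and 0.409 to 1.88 CPM in HSC-KO KCs, without overlap, and 1 of 4 tested (Hey1) fell. Of the 6 lymphatic EC markers Pdpn and Ccl21a rose, with sums of 4.21 to 77.98 and 4.07 to 24.04 CPM that overlapped. Cps1, Hnf4a and Tat fell among the 8 hepatocyte markers, Ecm1 among the 10 stellate cell markers, and Krt7 rose among the 6 cholangiocyte markers, again with overlapping sums. The 7 hematopoietic progenitor markers summed to 2.57 to 6.39 and 0.713 to 4.33 CPM, with Mpo not detectable in either group; edgeR's test called 0 of 4 tested, with an unadjusted p below 0.05 for 0 (DESeq2 called 0). The 10 macrophage markers summed to 47494 to 49526 CPM in controls and 26940 to 29696 CPM in HSC-KO KCs, with 2 of 10 called as lower. The part of these cells in the Hox changes was not tested.

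Deletion of Smad4 in hematopoietic cells gave no Hox call. With edgeR's quasi-likelihood test, 0 of the 12 Hox genes tested were called in Smad4 cKO against Smad4 control macrophages, against 5.43% of all 17517 genes tested. An unadjusted p below 0.05 was found for 2 of them, and DESeq2 called 1, Hoxb7. The groups did not overlap in these 2 genes (16.7% of the 12, against 29.4% of all genes). Hoxb4 was higher in every cKO library than in every control library, with a log2 fold change of 0.65 (standard error 0.24, adjusted p = 0.171 in edgeR's test). Hoxb7 had 1.14, 0.587 and 0.824 CPM in controls and 2.12, 1.34 and 1.90 CPM in cKO macrophages (log2 fold change 1.07, standard error 0.35, adjusted p = 0.124 in edgeR's test, 0.0487 in DESeq2). Another 9 genes tested had log2 fold changes of -0.64 to 0.96 and overlapped. Markers of other cells moved with genotype too. Macrophage markers summed to 52615 to 63915 CPM in controls and 25302.5 to 32325 CPM in cKO libraries, with 4 of 10 called as lower. Neutrophil (19.5 to 53.3 and 1.34 to 6.20 CPM) and stellate cell markers (203 to 236 and 142 to 194) fell without overlap. Cholangiocyte markers rose (4.35 to 5.57 and 10.3 to 22.5), also without overlap. The other sums overlapped. The part of these cells was not tested.

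The responses of macrophages to the HSC-KO and to the Smad4 cKO were compared with an interaction term. With edgeR's quasi-likelihood test, 0 of the 12 Hox genes tested differed, against 2.61% of all 18149 genes. An unadjusted p below 0.05 was found for 4 genes, and DESeq2 called 3 (Hoxa4, Hoxb3 and Hoxb5). The difference in log2 fold change, HSC-KO minus Smad4 cKO, was -2.64 for Hoxa4 (standard error 0.70, adjusted p = 0.0726 in edgeR's test), -3.64 for Hoxb5 (standard error 1.04, adjusted p = 0.0933) and 0.58 for Hoxb4 (standard error 0.35, adjusted p = 0.447). The EC share differed between these experiments, as given above.

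EC and macrophage libraries differed in their Hoxa4 change with the HSC-KO, while the calls of Hoxb5 and Hoxb3 depended on the fit. The pan-endothelial markers had a median log2 fold change of -2.76 in the KC libraries and of 0.22 in ECs. The part of EC carry-over in the Hoxa4 and Hoxb5 differences was not tested. In an interaction fit with edgeR's quasi-likelihood test, 3 of the 14 Hox genes tested differed, against 12.3% of all 18213 genes. Hoxa4 had a log2 fold change of 0.03 in ECs and -2.85 in KCs (difference, EC minus KC, 2.87, standard error 0.56, adjusted p = 0.00578 in edgeR's test), and this call was kept whichever of the 12 libraries was left out (adjusted p up to 0.0181). Hoxb5 differed by 2.89 (standard error 0.83, adjusted p = 0.037 in edgeR's test), a call kept in 3 of the 12 fits with a library left out. With a block for the 3 mice that gave both cell types, its adjusted p was 0.0615 and that of Hoxb3 0.117 in limma's test, and Hoxa4 stayed called (adjusted p = 0.0419). Hoxb3 was lower in HSC-KO than in control ECs and was found in HSC-KO but not in control KCs. It was below the filter among KCs and entered this fit through ECs. Its adjusted p was 0.0242 in edgeR's test, and as control KCs had no count, its fitted difference of -9.97 depends on the prior count and gives no size. The Hoxb3 call was lost without EC HSC-KO replicate 3 or KC HSC-KO replicate 1. Hoxb4 had an adjusted p of 0.059 in edgeR's test for a difference of -1.11.

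In whole livers of HSC-KO mice no Hox change was called. With edgeR's quasi-likelihood test, 0 of the 11 Hox genes tested were called, against 2.48% of all 17118 genes tested, and an unadjusted p below 0.05 was found for 0 (DESeq2 called 0). The groups did not overlap in 4 of the 11 genes (36.4%, against 19.7% of all genes). Hoxa2 had a log2 fold change of 1.13 (adjusted p = 0.512 in edgeR's test), from 0.181, 0.208 and 0.521 CPM to 0.536, 0.524 and 0.933 CPM. Hoxa7 had no count in control livers and 7, 13 and 0 counts in HSC-KO livers, and Hoxd8 had 7, 0 and 0 counts in control and 16, 35 and 0 counts in HSC-KO livers. Both were below the filter, so the EC changes of these genes could not be tested at this depth in whole liver.

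**Figure D5:**
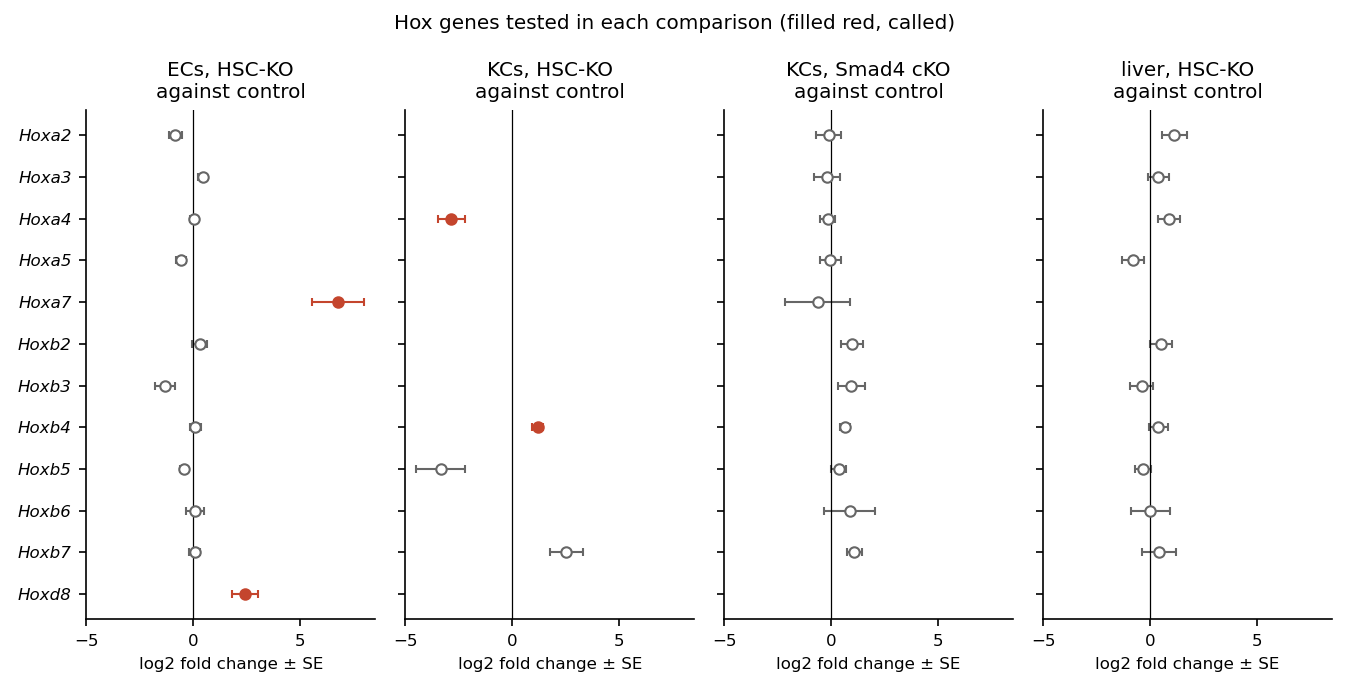
Log2 fold change ± standard error of Hox genes tested in 4 comparisons: ECs, KCs and livers of HSC-KO against control mice, and macrophages of Smad4 cKO against Smad4 control mice (filled red, called; open, not called; absent, not tested). Calls are seen for Hoxa7 and Hoxd8 in ECs and for Hoxa4 and Hoxb4 in KCs.

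Partners and regulators of Hox genes were read from lists. Their counts are descriptions, to be set beside the shares of all genes called, which were 13.7% in ECs, 11.7% in HSC-KO KCs, 5.43% in Smad4 cKO macrophages and 2.48% in livers. TALE homeodomain proteins (Meis, Pbx and Pknox) bind DNA together with Hox proteins. In HSC-KO ECs, 1 of the 8 TALE genes tested rose and 1 fell, against 7.68% and 6.01% of all genes. Meis1 fell by 1.49 in log2 units (standard error 0.28, adjusted p = 0.00892 by edgeR's quasi-likelihood test), from 31.8, 53.3 and 55.2 CPM to 21.8, 12.6 and 15.5 CPM. In macrophages Pbx3 was the TALE gene called, in both mutants. It had 9.54, 10.3 and 9.31 CPM in control KCs and 26.9, 29.1 and 26.3 CPM in HSC-KO KCs (log2 fold change 1.497, adjusted p = 0.000352 in edgeR's test). In the Smad4 experiment it had 7.75, 5.27 and 7.16 CPM in controls and 22.1, 18.9 and 20.9 CPM in cKO macrophages (log2 fold change 1.62, adjusted p = 0.00234 in edgeR's test). In livers 0 of 8 TALE genes were called by edgeR's test, with an unadjusted p below 0.05 for 0 (DESeq2 called 0).

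Retinoic acid, made from vitamin A, sets Hox expression in the embryo. Of 13 retinoic acid genes tested in ECs, 2 rose in HSC-KO mice and 0 fell, a count near the 13.7% of all genes called in ECs. Aldh1a3, an enzyme that makes retinoic acid, had 0.0854, 0.162 and 0.0950 CPM in controls and 0.605, 0.851 and 1.41 CPM in HSC-KO ECs (log2 fold change 3.06, standard error 0.61, adjusted p = 0.0112 in edgeR's test). In HSC-KO KCs, 1 of 12 rose (Rarg) and 4 fell (Rxra, Aldh1a1, Rdh10 and Cyp26b1), in Smad4 cKO macrophages 1 of 14 rose (Dhrs3), and in HSC-KO livers 1 of 15 rose (Aldh1a3).

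Polycomb and Trithorax proteins keep Hox genes off or on through cell division. Of the 24 genes tested in ECs, edgeR's quasi-likelihood test called 0, with an unadjusted p below 0.05 for 6 (DESeq2 called 0), and the median log2 fold change was 0.14. In HSC-KO KCs 2 of 24 rose, the Polycomb chromobox genes Cbx6 and Cbx7 (log2 fold changes 1.20 and 1.12). In Smad4 cKO macrophages and HSC-KO livers edgeR's test called 0 of 24, with an unadjusted p below 0.05 for 5 and 4 (DESeq2 called 0 in each). Of 15 noncoding RNAs of the Hox clusters, 11 were in the tables and 5 were tested in ECs (Hotairm1, Hoxaas2, Hoxaas3, Hoxb3os and Hoxb5os). EdgeR's test called 0 of these, with an unadjusted p below 0.05 for 0 (DESeq2 called 0). In KCs, Smad4 macrophages and livers it called 0 of 2, 4 and 3 tested, with an unadjusted p below 0.05 for 1, 0 and 0 (DESeq2 called 1, Hotairm1 in KCs, and 0 in the others). The 6 Cdx and other ParaHox genes, which act upstream of or beside the Hox clusters in the embryo, were below the filter in ECs and in macrophages.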

How the data were processed

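RNA-seq libraries (3 per group, 8 groups) were deposited as 4 tables of raw counts per gene symbol. Per the submitters' processing notes and the study's methods, the authors aligned reads to mm10 (GRCm38) with HISAT2 and counted them with featureCounts. Versions, annotation release and strand setting are not given in the sources used here, and the sources differ on the library kit. DESeq2 was the authors' tool for differential expression.

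Counts were tested with edgeR 4.0.16 (quasi-likelihood, TMM, filterByExpr with minimum count 10 and minimum total count 15; limma 3.58.1, R 4.3.3) on the 2 groups compared, or on 4 groups for interactions, with Benjamini-Hochberg adjustment over all genes tested. A gene was called at adjusted p below 0.05 and absolute log2 fold change above 1. DESeq2 1.42.0, other scalings, filters, a replicate block, Xist as covariate, overlapping genes summed and each library left out were alternatives. Python 3.11.15 was used for carry-over and promoter motifs. Gene models were from GENCODE vM21. The procedure was tested on simulated data. Same-mouse EC and KC libraries were identified from the labels, which give each library a mouse number (within-mouse correlation -0.11, 3 mice).

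All Hox genes entered the counts and sums, and a few genes of the tables are not reported here by name or value. Hox genes with a mean of at least 1 CPM in an EC group, or called in any comparison, were to be described by library. For ECs, Hoxa3, Hoxb2 and Hoxb6 are given only as control means and within a range of fold changes. Of the pathway lists, up to 4 genes called in ECs with the largest fold changes were to be named. Marker genes were named after their values were seen. Macrophage genes were named after their values were seen. The members and lists were chosen with earlier results of these data known. Of the table entries, 483 share 237 symbols, and no Hox gene was among them. Libraries of a group carry separate mouse labels.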

Additional observations from a re-analysis of the deposited data

Results flagged for a closer look

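For 3 Hox genes the change with the HSC-KO differed between ECs and KCs by the interaction term in edgeR's quasi-likelihood test. For Hoxa4 the log2 fold change was higher in ECs than in KCs by 2.87 (adjusted p = 0.00578), and for Hoxb5 by 2.89 (adjusted p = 0.037). For Hoxb3 the fitted difference, EC minus KC, was -9.97 (adjusted p = 0.0242), with no count in the 3 control KC libraries, and the gene passed the filter on low counts through ECs. With a block for the 3 mice that gave both cell types, Hoxa4 stayed called, whereas Hoxb5 (adjusted p = 0.0615) and Hoxb3 (adjusted p = 0.117) were not called in limma's test, and the Hoxb5 call was kept in 3 of the 12 fits with a library left out. In every HSC-KO EC library Hoxb3 was below the control ECs, and it was counted in 2 of the 3 HSC-KO KC libraries. The EC share of the KC libraries was 0.0944% to 1.45% in controls and 0.0451% to 0.264% in HSC-KO mice, and its part in these differences was not tested.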

How the results depend on the processing

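Depth limits genes near 3 counts, and 3 libraries per group limit every call. The number of Hox genes called in ECs (3) was 1 to 4 with a library left out and 2 to 4 under the other settings. In KCs (3) it was 0 to 2 with a library left out, 5 with DESeq2 and 1 with the replicate block, which kept Hoxb4. In Smad4 macrophages (0) DESeq2 called 1. In control ECs against KCs (12) a minimum of 10 counts in every library left 4 genes to test, all called, which is given as a description. For the EC against KC response (3) the count was 6 with DESeq2, 1 with the replicate block by mouse and 1 to 4 with a library left out. For the HSC-KO against Smad4 cKO response (0) it was 3 with DESeq2, 1 with a minimum of 10 counts and 0 to 2 with a library left out, and the Hoxa2 difference ran from -7.03 to 0.13 with a library left out, reversed without KC control replicate 2, the only control KC library with Hoxa2 counts. The replicate numbers did not pair the libraries (correlations of deviations -0.206 to 0.231), and the block changed no other count of calls by over 1.5 times.

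The number of Hox genes above the carry-over was 5 and 1 in control KCs (3) at 1 and 10 times, and 3 in HSC-KO KCs (5) at 10 times. In Smad4 control macrophages (1) it was 6 and 0 at 1 and 10 times, 0 with summed markers, and 1 to 2 with a library left out. In Smad4 cKO macrophages (1) it was 4 and 0 at 1 and 10 times and 1 to 3 with a library left out, and their median EC share (7.78%) was 10.8% with summed markers and 8.95% with library size alone. Scaling by library size alone shifted fold changes by 0.29 in ECs, 0.16 in Smad4 macrophages and -0.11 in livers (log2). Of 708 values of single genes under other settings, 632 kept their direction and side of the threshold, 51 lost and 24 gained a call, and 1 reversed. Where no value shows it, the cause was not tested.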

Other observations

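Cdx4, a ParaHox-type gene that acts upstream of Hox genes in the embryo, was counted in whole liver and in none of the EC or macrophage libraries. It had 1.03, 1.12 and 1.11 CPM in control livers and 0.228, 0.440 and 0.0557 CPM in HSC-KO livers, without overlap. The log2 fold change was -2.15 (adjusted p = 0.2 by edgeR's quasi-likelihood test, called by DESeq2). Cdx4 is named here because of the values it showed. Aldh1a3 rose in HSC-KO livers as it did in HSC-KO ECs, from 0.788, 0.378 and 0.332 CPM to 2.80, 1.90 and 2.66 CPM (log2 fold change 2.29, adjusted p = 0.0359 in edgeR's test).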
